A study of Homo sapiens with 9 samples.

Results

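The comparison set shHIF1A cells against shGFP control cells after 12 h of hypoxia. It used 2 of the 9 arrays of the series, chosen by the sample titles, with 1 array on each side. All cells were Huh-7, a human hepatoma line, with a stable lentiviral short hairpin RNA (shRNA). The hairpin was directed at HIF1A, the gene of the oxygen-regulated HIF-1 alpha protein, or at GFP, a sequence the cells do not carry by nature. Both cultures were kept in 1% oxygen for 12 h in Dulbecco's medium with serum and penicillin. The sources do not say whether each line was a clone or a pool, or how many hairpins were used, and no shHIF1A culture in normoxia was used here. Another 4 arrays of the same Illumina platform served as reference points: shGFP cells in normoxia, shGFP cells after 6 h of hypoxia, and shNDRG3 cells (hairpin against NDRG3, a relative of the stress gene NDRG1) after 6 h and 12 h of hypoxia. The other 3 arrays lay on a second platform and entered only through the genes induced in shGFP cells at 24 h. No condition was replicated, so no difference here has a replicate check and none carries a p-value.

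Hypoxia-inducible factor is a pair of proteins. The beta subunit ARNT is always present, whereas the alpha subunits, HIF-1 alpha (HIF1A) and HIF-2 alpha (EPAS1), are marked for destruction by oxygen-dependent prolyl hydroxylases and accumulate when oxygen is short. The dimer binds a short DNA motif, the hypoxia response element, and raises genes of glucose uptake, glycolysis, acid handling, mitophagy, blood vessel growth and matrix modification. The alpha subunits share many target genes but differ in others, and in several cell types HIF-1 alpha is the one tied to glycolytic genes.

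Values are array intensities on a linear scale, and differences are shHIF1A minus shGFP at 12 h in log2(intensity + 32). A gene was tested, meaning compared, if either array reached an intensity of 127.3, the 40th percentile of the platform. Of 18153 genes, 11414 met this. In bulk RNA, fewer cells of a kind and less RNA per cell cannot be told apart.

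The target was lower. HIF1A intensity was 956 in normoxic shGFP cells, 824 at 6 h and 897 at 12 h of hypoxia in the same line, 805 and 1065 in shNDRG3 cells at these times, and 231 in shHIF1A cells. The shHIF1A value lay below all 5 others, which spanned 805 to 1065, and the difference from shGFP at 12 h was -1.82. An intensity of 231 was at percentile 56.0 of its array, and background was not subtracted, so the remaining intensity cannot be read as a share of the transcript. NDRG3 was 1428 in shHIF1A cells and 1456 in shGFP cells (-0.03), so the gene targeted in the other knockdown was near its control level. EPAS1 was 4318 in shGFP cells, 7240 in shNDRG3 cells and 5764 in shHIF1A cells at 12 h, a difference of 0.41 for shHIF1A. Its value was thus above the shGFP array and below the shNDRG3 array. ARNT was 294 in shGFP and 310 in shHIF1A cells (0.07), and its relative ARNT2 was 214 and 334 (0.57).

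The hepatoma label was checked on markers. Of 25 hepatocyte genes, 2 to 6 were over the filter on any 1 of the 6 arrays, with summed intensities between 3014 and 3206 and ALB, the serum albumin gene, at 165 in shHIF1A and 166 in shGFP cells. AFP, the fetal albumin relative made by hepatoma lines, was at 98 and 100, under the filter. FOXA1, a transcription factor gene of the same list, was well over the filter, at 495 in shGFP and 513 in shHIF1A cells (0.05). Of the 6 hepatocyte genes tested, 4 were above 0 and the median difference was 0.23. Most of the liver markers were therefore close to background on the compared arrays, and the line identity was not tested. KRT17, a keratin gene of stratified epithelia, was at 21439 in shGFP and 29323 in shHIF1A cells, whereas KRT5, KRT14 and TP63 did not reach the filter. Of 7 keratinocyte and squamous markers 2 were over the filter on each array. The summed intensity of all 7 was 31093 in shHIF1A cells against 15680 to 24147 on the other arrays, and most of it was KRT17. The other marker over the filter, SFN, was lower, at 1731 in shGFP and 1311 in shHIF1A cells (-0.39). The median difference of these 2 was 0.03. Of 18 markers of other cell types 6 to 8 were over it, with a sum of 18688 in shHIF1A cells and 18540 in shGFP cells at 12 h. The part of these marker levels in the differences below was not tested.

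In shHIF1A cells 69 genes lay 2-fold or more below the control (0.605% of the genes tested) and 61 lay 2-fold or more above it (0.534%). The median difference over all tested genes was 0.01 and the central 95% ran from -0.63 to 0.63. As a scale, shNDRG3 and shGFP cells at 12 h were 2-fold apart for 19 genes, shNDRG3 and shGFP cells at 6 h for 13, and shGFP cells at 6 h and 12 h for 43. The shHIF1A array thus differed from its control for 130 genes in total, more than these pairs, and for fewer than the 459 between shGFP cells at 12 h and in normoxia.

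**Figure D1:**
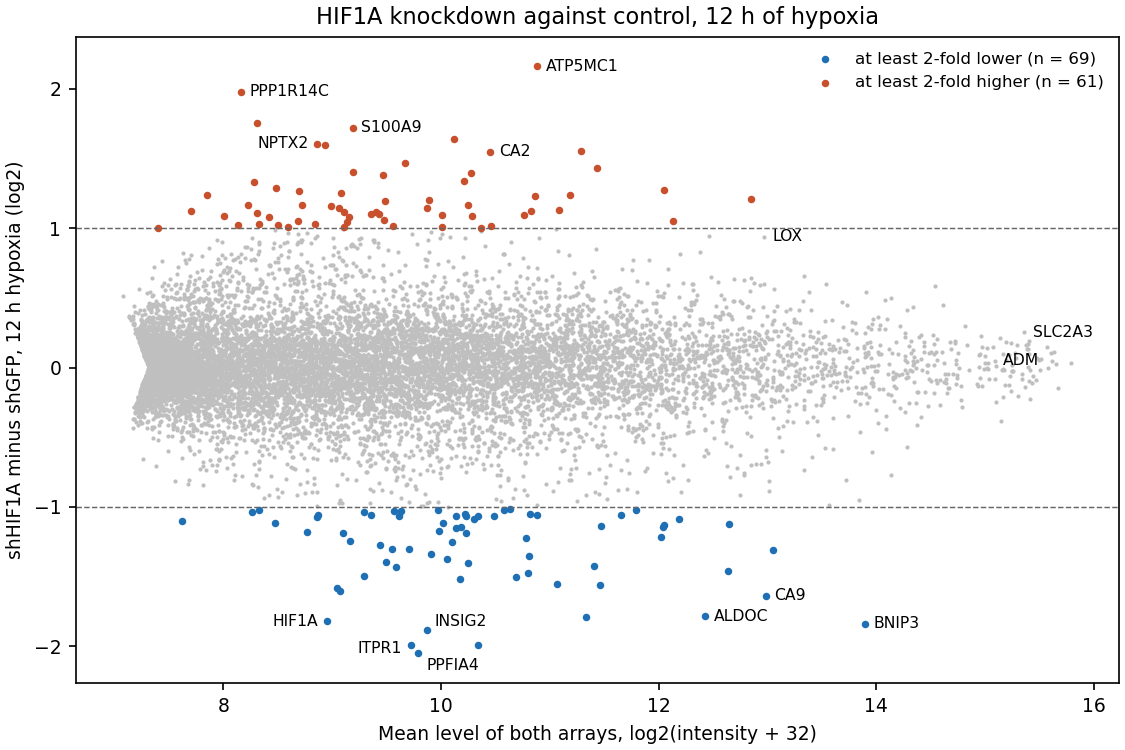
Each point is 1 of the 11414 genes tested. The horizontal axis gives the mean level of the shHIF1A and shGFP arrays at 12 h of hypoxia in log2(intensity + 32), and the vertical axis the shHIF1A minus shGFP difference (log2). Dashed lines mark 2-fold. BNIP3, ALDOC and CA9 are both bright and low, whereas ADM and SLC2A3 lie near 0 at the bright end.

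The lower genes included hypoxia-inducible genes of energy metabolism. BNIP3, a mitophagy receptor gene, was at 3687 in shGFP cells in normoxia, 18690 at 6 h and 28731 at 12 h of hypoxia, 22000 and 33024 in shNDRG3 cells at these times, and 8012 in shHIF1A cells (-1.84). ALDOC, a glycolytic aldolase gene, was at 658, 5030, 10200, 4830, 10483 and 2941 on the arrays in the same order (-1.78). PPP1R3C, which brings a phosphatase to glycogen, was at 917, 4613, 4755, 5455, 6398 and 1352 (-1.79). On these 3 genes the shHIF1A array was lower than all 4 other hypoxic arrays and above the normoxic one. PDK3, a kinase that turns off pyruvate dehydrogenase, was at 548, 999, 1926, 1173, 1801 and 652 (-1.52), which is close to its normoxic level. CA9, the membrane carbonic anhydrase used as a hypoxia marker, was at 940, 7582, 14246, 8250, 13806 and 4556 (-1.64). PFKFB4, which makes an activator of phosphofructokinase, was at 297, 7624, 10522, 8591, 10824 and 3814 (-1.46). Both CA9 and PFKFB4 were lower than on every other hypoxic array, yet well above normoxia by 2.24 and 3.55.

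**Figure D2:**
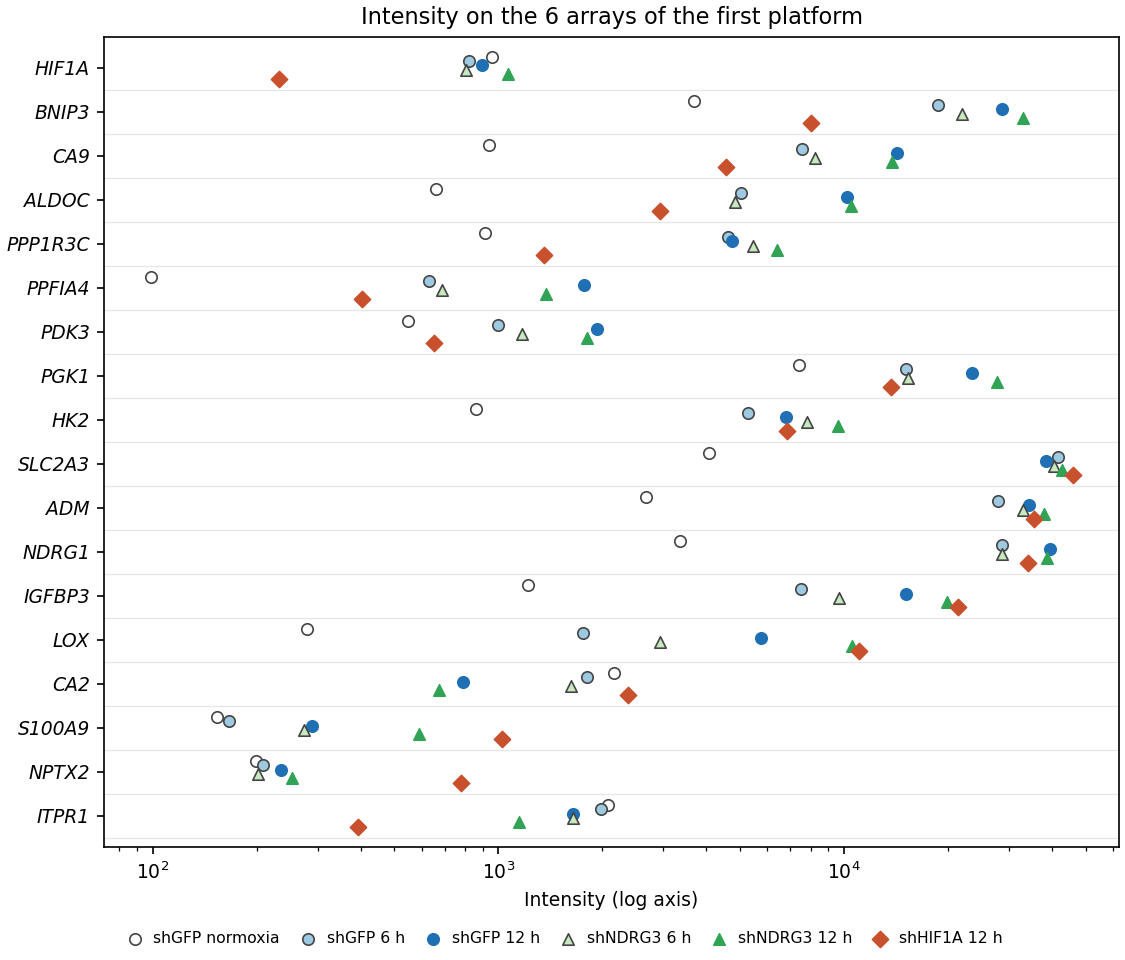
Intensity (log axis) of 18 genes on the 6 arrays of the first platform, with 1 point per array and no error bars since no array was replicated. Red diamonds are shHIF1A cells at 12 h. For BNIP3, CA9, ALDOC, PPP1R3C, PPFIA4 and PDK3 the diamond lies left of every other hypoxic array, whereas for SLC2A3, IGFBP3 and LOX it lies right of them.

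Members of the glycolytic pathway ranged from -1.78 to 0.25. Of 19 tested genes of glucose uptake and glycolysis, 3 were at least 2-fold lower (ALDOC, PFKFB4 and the neuronal enolase gene ENO2) and none was 2-fold higher. In this list 16 were below 0 and the median was -0.29, against 0.01 over all genes tested. For this and each list below, the shares over all genes tested were 0.605% at least 2-fold lower, 0.534% at least 2-fold higher and 49.1% below 0. PGK1, which makes an ATP-yielding glycolytic kinase, was at 7408, 15164, 23414, 15338, 27789 and 13715 (-0.77), and PFKP, a phosphofructokinase gene, was at 9389 in shGFP and 5762 in shHIF1A cells (-0.70). The glucose transporter genes and the first enzyme stood differently. SLC2A3 was at 4077, 41549, 38515, 40453, 42784 and 45879 (0.25), and SLC2A1 at 8742 in shGFP and 7162 in shHIF1A cells (-0.29). HK2, the inducible hexokinase gene, was at 864, 5275, 6798, 7794, 9639 and 6847 (0.01). SLC2A3 and HK2 were at least as far above normoxia in shHIF1A as in shGFP cells, and SLC2A1 less so, by 1.97 against 2.26. SLC2A3 lay at the 99.8 percentile of the shGFP array, and the part of array saturation was not tested. The same limit holds for NDRG1 (percentile 99.8), ADM (99.7), DDIT4 (99.4) and MT1X (99.9), which are described below, and for BNIP3 (99.6). With shNDRG3 cells at 12 h as the control, the list median was -0.55.

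Genes that handle the products of glycolysis and store glucose also differed among themselves. Of 12 tested genes of lactate and pyruvate fate PDK3 alone was 2-fold lower, and the median was -0.13. LDHA, the lactate dehydrogenase subunit gene, was at 30575 in normoxia, and at 12 h at 34556 in shGFP and 32644 in shHIF1A cells (-0.08). It was brighter than ADM on the shGFP array at 12 h, so the limit on array saturation holds for LDHA too. The lactate exporter gene SLC16A3 was at 16841 in shGFP and 14135 in shHIF1A cells (-0.25). PDK4, another pyruvate dehydrogenase kinase gene, which was lower in hypoxia than in normoxia, was at 1376, 742, 719, 755, 547 and 350 (-0.97). Of 16 glycogen genes, PPP1R3C and the glycogen synthase gene GYS1 (644 and 289, -1.07) were 2-fold lower and the median was -0.22. GBE1, the glycogen branching enzyme gene, differed by -0.87 and PGM1, which links glucose-1-phosphate to glucose-6-phosphate, by -0.64. The glycogen phosphorylase gene PYGL differed by 0.08. The highest member was PYGB, another phosphorylase gene, at 0.36.

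Mitochondrial, oxygen-sensing and chromatin genes were considered next. BNIP3L, a relative of BNIP3, was at 519, 3304, 5532, 3732, 5266 and 3257 (-0.76), and the mitochondrial protease gene LONP1 was at 4427 in shGFP and 3055 in shHIF1A cells (-0.53). Of 8 tested mitophagy and mitochondrial adaptation genes, BNIP3 was the 1 past 2-fold and the median was -0.36, or -0.19 among the 5 equal to 1 probe and -0.14 over all 10 in the table. EGLN1, the main oxygen-sensing prolyl hydroxylase gene, was at 430, 1276, 1071, 1350, 1270 and 585 (-0.84), whereas its inducible relative EGLN3 was at 128, 590, 665, 802, 832 and 608 (-0.12). Of the 11 oxygen sensors and HIF subunits tested, HIF1A was the 1 past 2-fold, 7 were above 0 and the median was 0.10. Those above 0 included HIF1AN (0.27), which encodes an asparaginyl hydroxylase that inhibits HIF, VHL (0.21), which encodes the ligase subunit that binds hydroxylated HIF alpha, and the prolyl hydroxylase gene EGLN2 (0.18). Of 8 oxygen-dependent histone demethylase genes none was past 2-fold in either direction, 6 were below 0 and the median was -0.26. KDM3A, a demethylase of histone H3 lysine 9, was the lowest, at 1450 in shGFP and 875 in shHIF1A cells (-0.71).

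Matrix and vascular genes held values on either side. LOX, the collagen cross-linking lysyl oxidase gene, was at 279, 1752, 5764, 2936, 10522 and 11071 (0.94). IGFBP3, an insulin-like growth factor binding protein gene, was at 1216, 7507, 15082, 9642, 19902 and 21355 (0.50). Both were highest on the shHIF1A array, although the shNDRG3 array at 12 h was nearly as high. The collagen lysyl hydroxylase gene PLOD2 was at 6612 in shGFP and 7955 in shHIF1A cells (0.27), the prolyl hydroxylase subunit gene P4HA1 at 3148 and 2600 (-0.27), and P4HA2 at 2046 and 962 (-1.06). Of 9 collagen hydroxylase and lysyl oxidase genes tested P4HA2 was the 1 past 2-fold, and the median was 0.08. Its sign turned with the filter, as the median was -0.21 over 7 genes at the 60th percentile. Among 15 angiogenic and vasoactive factors the median was 0.01, or -0.09 with the 60th percentile filter. None was 2-fold lower and 1 was 2-fold higher. ADM, which encodes the vasodilator adrenomedullin, was at 2670, 27972, 34202, 32919, 37863 and 35364 (0.05), and VEGFA, the vascular growth factor gene, at 522 in shGFP and 489 in shHIF1A cells (-0.09). STC2, a secreted stanniocalcin gene, was the lowest of that list, at 4828 and 2879 (-0.74).

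Among 23 other hypoxia-inducible genes tested, 3 were at least 2-fold lower, none higher, and the median was -0.19. PPFIA4, a liprin scaffold gene, had the lowest difference of all tested genes and was at 98, 631, 1766, 687, 1375 and 402 (-2.05). INSIG2, which holds back sterol synthesis, was at 336, 1393, 1762, 1172, 1450 and 454 (-1.88), and the small GTPase gene RAB20 was at 493 in shGFP and 210 in shHIF1A cells (-1.11). In contrast NDRG1, a stress-induced gene, was at 3344, 28731, 39399, 28731, 38770 and 34076 (-0.21), within the range of the other hypoxic arrays. DDIT4, an mTOR inhibitor gene, was at 25203 in shGFP, 23188 in shNDRG3 and 22253 in shHIF1A cells at 12 h (-0.18). ANKRD37, a gene of the ankyrin repeat family, was at 498, 5414, 9171, 5057, 11125 and 5359 (-0.77). Of 7 acid and bicarbonate genes tested 3 were past 2-fold, with CA9 lower and CA12 (309 and 730, 1.16) and CA2 (788 and 2369, 1.55) higher. In this list 4 were above 0 and the median was 0.05. CA12 was at 700 in shNDRG3 cells at 12 h, and its difference was 0.06 against that array. CA2, a cytosolic carbonic anhydrase gene, was at 2157 in normoxia, 788 in shGFP and 671 in shNDRG3 cells at 12 h, so its shHIF1A value was above all of these.

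The choice of genes by induction was next made on arrays that do not enter the difference. In shGFP cells 102 genes were at least 2-fold higher at 6 h of hypoxia than in normoxia, or 0.899% of the genes compared there. Their median shHIF1A difference at 12 h was -0.46, with quartiles of -0.83 and -0.04, against 0.01 over all tested genes. Of the 102, 79 were below 0, 15 were at least 2-fold lower and 1 was at least 2-fold higher. Over all genes tested 49.1% were below 0. The 15 made up 14.7% of the induced genes and 21.7% of the 69 lower genes. Relative to normoxia the 102 genes had a median of 1.94 on the shGFP array at 12 h and 1.47 on the shHIF1A array, and none was at or below its normoxic value in shHIF1A cells. On 75 of the 102 the shHIF1A array was below both other 12 h arrays, compared with 36.0% of all tested genes.

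The 15 lower genes, besides those described, included GDF15, a stress cytokine gene (4411 in shGFP and 1627 in shHIF1A cells), RCOR2, a corepressor gene (1229 and 435), NOL3, an apoptosis repressor gene (1705 and 800), ANG, the angiogenin gene (2687 and 1274), and the non-coding RNA gene H19 (2149 and 1042). These were named after their values were seen. At the threshold, H19 at -1.02 was just inside 2-fold and TLE6 at -0.99 just outside. The stress factor genes JUN and DDIT3, which encode an AP-1 subunit and the CHOP protein, were among the 23 genes above 0, at 0.41 and 0.49. Both were higher in shNDRG3 than in shHIF1A cells at 12 h (6906 and 5650 for JUN, 3878 and 3169 for DDIT3).

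**Figure D3:**
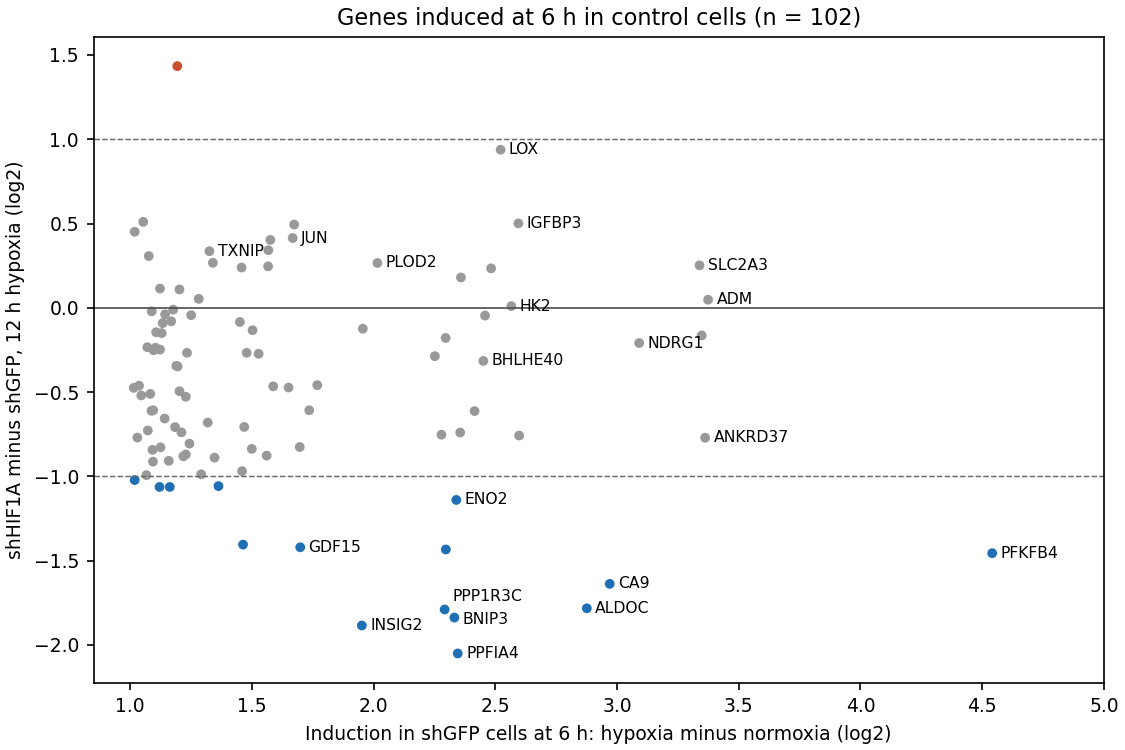
The 102 genes that were at least 2-fold higher in shGFP cells at 6 h of hypoxia than in normoxia. The horizontal axis gives that induction (log2) and the vertical axis the shHIF1A minus shGFP difference at 12 h (log2), taken from other arrays. Blue points are at least 2-fold lower and the red point is at least 2-fold higher. Strongly induced genes lie both at the bottom (ALDOC, CA9) and at 0 (ADM, SLC2A3).

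Genes induced in control cells at 24 h had a median difference near 0. On the second platform 313 genes were at least 2-fold higher in shGFP cells at 24 h than in normoxia. The 307 of them tested had a median shHIF1A difference of 0.01, with 12 at least 2-fold lower and 5 higher. Over all genes tested 0.605% were at least 2-fold lower and 0.534% at least 2-fold higher. These 307 include the 57 genes induced at both 6 h and 24 h, which had a median of -0.47, with 10 at least 2-fold lower. The 250 tested of those induced at 24 h but not at 6 h had a median of 0.06. Of these 250, 2 lay 2-fold or more below the control and 5 above. At 12 h these 250 genes had a median of 0.51 over normoxia in shGFP cells, against 1.94 for the genes induced at 6 h. The 24 h genes were chosen on another platform with its own normoxia array and filter, so time and platform cannot be told apart. The difference between these groups was not tested.

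Promoter sequences were read for the early induced genes because the core of the motif that HIF binds is known. The core of the hypoxia response element was searched as ACGTG and GCGTG on both strands, in the 250 bases before the annotated start, from RefSeq (GRCh38.p14). Where ACGTG lies inside CACGTG, the letters match on both strands and count as 2 overlapping cores, and CACGTG is also the motif of other factors. The windows below come from 3 of the 5 lowest and 3 of the 5 highest of the 102 with a promoter in the table, each as the 100 bases that hold the most cores, 5' to 3' along the gene, with cores in capitals.
BNIP3: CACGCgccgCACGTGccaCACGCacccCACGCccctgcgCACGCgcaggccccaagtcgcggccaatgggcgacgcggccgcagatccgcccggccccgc
ALDOC: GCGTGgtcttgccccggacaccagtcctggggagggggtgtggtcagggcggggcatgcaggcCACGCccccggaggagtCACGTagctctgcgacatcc
PPFIA4: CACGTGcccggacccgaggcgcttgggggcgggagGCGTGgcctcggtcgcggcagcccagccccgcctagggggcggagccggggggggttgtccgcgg
LOX: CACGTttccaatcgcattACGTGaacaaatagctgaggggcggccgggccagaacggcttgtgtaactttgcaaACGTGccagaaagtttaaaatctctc
IGFBP3: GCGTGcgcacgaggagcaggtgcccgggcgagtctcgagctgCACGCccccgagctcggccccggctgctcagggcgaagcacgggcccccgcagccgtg
CSRNP1: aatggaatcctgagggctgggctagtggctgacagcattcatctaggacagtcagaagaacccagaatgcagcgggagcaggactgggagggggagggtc

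The BNIP3 window (chr10:131981967-131982066, minus strand) held 6 cores, the ALDOC window (chr17:28576904-28577003, minus) 3 and the PPFIA4 window (chr1:203026372-203026471, plus) 3. The LOX window (chr5:122078276-122078375, minus) held 3 and the IGFBP3 window (chr7:45921382-45921481, minus) 2, although these genes were higher in shHIF1A cells. The CSRNP1 window (chr3:39154642-39154741, minus) held none. Cores thus stood before genes on either side. Of the windows not printed, INSIG2 held 2 and PPP1R3C 3 among the lowest, and DDIT3 held 1 and SEMA4B 0 among the highest. Of 78 early induced genes with a promoter in the table, 54 held a core, or 69.2%, compared with 57.4% of 8936 tested genes and 50.5% of 15843 protein-coding promoters. It was held by 9 of the 14 that were at least 2-fold lower (64.3%) and by 13 of the 18 at or above the shGFP level (72.2%). For 2 or more cores the order was the reverse, with 6 of the 14 (42.9%) and 5 of the 18 (27.8%), against 29.0% of tested genes. Of the 46 induced genes that were lower by less than 2-fold, 32 held a core (69.6%) and 20 held 2 or more (43.5%). The share with 2 or more cores was thus close to that of the 14. Over the 49 lower genes of any kind with a promoter the share was 46.9%, and over 50 higher genes 54.0%. These shares describe the letters of this window only.

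Of the 69 lower genes, 54 were not among the 102 induced at 6 h. The 15 that were made up 21.7% of the lower genes, whereas the 102 were 0.899% of all genes compared at 6 h. On 13 genes the shHIF1A array was at least 2-fold below all 5 other arrays, normoxia included, which is 0.107% of 12156 genes over the filter on any array. HIF1A had the widest gap. ITPR1, a calcium release channel gene of the endoplasmic reticulum, was at 2081, 1981, 1649, 1645, 1150 and 392 (-1.99), and BMP6, a bone morphogenetic protein gene, at 1744, 2180, 2550, 1743, 1935 and 619 (-1.99). BMP5, a relative of BMP6, was at 3250, 2586, 1497, 2035, 1536 and 574. These 3 genes were thus lower than in any other culture, and ITPR1 and BMP5 were lower in hypoxic than in normoxic shGFP cells. ATP5MF, an ATP synthase subunit gene, was at 13267 in shGFP and 5350 in shHIF1A cells, and FLOT2, a membrane raft protein gene, at 6289 and 2695. The amino acid transporter gene SLC38A1 was at 2944 and 1040, and the RNA-binding protein gene HNRNPC at 1844 and 864. SLC25A43, SPINK4, MCTP1 and EPDR1 were also among the 13. Genes of this paragraph other than ITPR1, BMP6, SPINK4, MCTP1 and HIF1A were named after their values were seen.

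**Figure D4:**
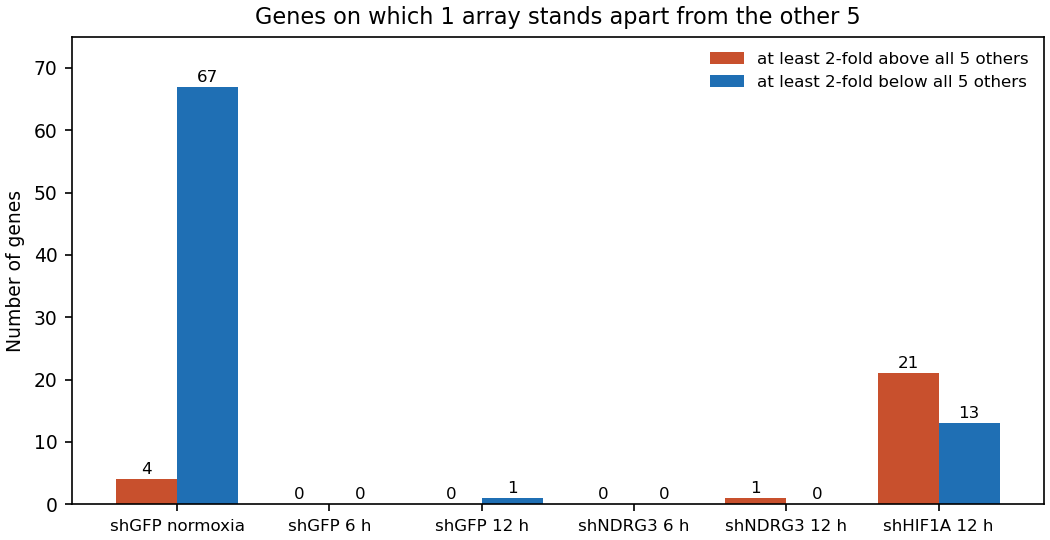
For each of the 6 arrays of the first platform, the number of genes at least 2-fold above (red) or below (blue) all 5 other arrays, of 12156 genes over the filter on any array. The normoxia array stands apart on 67 genes below and 4 above, the shHIF1A array on 13 below and 21 above, and each of the other 4 on at most 1. Only the shHIF1A array has no other array of its line here, so the counts are not on equal terms.

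On 21 genes, 0.173% of the 12156, the shHIF1A array was at least 2-fold above all others. Each of the other 4 hypoxic arrays stood apart in this way on at most 1 gene. Each of those had another array of its own line among the arrays it was set against, whereas the shHIF1A array had none. A level particular to a line could therefore stand apart only for shHIF1A cells, and these counts do not compare the lines on equal terms. RASD1, a Ras-like GTPase gene, was at 132, 184, 250, 141, 222 and 821 (1.60). NPTX2, which encodes a neuronal pentraxin of synapses, was at 199, 208, 234, 201, 254 and 778 (1.60), and its relative NPTX1 at 406 in shGFP and 1107 in shHIF1A cells (1.38). KIF1A, a motor protein gene of axons, was at 458 and 1325 (1.47), and CDH2, the N-cadherin gene, at 730 and 1973 (1.40). SERPINE2, a protease inhibitor gene, was at 541, 458, 599, 531, 755 and 1933 (1.64). None of these genes was 2-fold different between shGFP cells at 12 h and in normoxia. UCHL1, a neuronal deubiquitinase gene, was at 1186 and 2833, TGM2, the tissue transglutaminase gene, at 1434 and 3177, and NT5E, the CD73 ectonucleotidase gene, at 251 and 603. The last 3 were named after their values were seen. TUBB2B, a beta-tubulin gene, was at 1428 in shGFP, 2196 in shNDRG3 and 4250 in shHIF1A cells at 12 h (1.55), and S100A9, which encodes a calgranulin, at 289, 588 and 1028 (1.72).

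Several of the largest positive differences were smaller against the other knockdown line. ATP5MC1, which encodes the ATP synthase c subunit and had the highest difference of all (2.16), was at 2557, 2127, 861, 5400, 3183 and 3965. The shGFP array at 12 h was the lowest of the 6, and against the shNDRG3 array at 12 h the difference was 0.31. ITPK1, an inositol phosphate kinase gene, was at 232, 227, 141, 520, 521 and 551, with a difference of 1.76 against shGFP and 0.08 against shNDRG3 cells. REEP1, which shapes the endoplasmic reticulum, was at 328, 638 and 919 in shGFP, shNDRG3 and shHIF1A cells at 12 h, and TMED5, a cargo receptor gene, at 716, 1297 and 1856. These 4 genes were therefore closer to the other knockdown line than to the control, and in shNDRG3 cells they were above shGFP cells at 6 h too. PPP1R14C, a phosphatase inhibitor gene, was at 112, 238 and 536 (1.98) and stood apart from both. Its shGFP value was under the filter, so it was tested through the shHIF1A array alone. Among the lower genes TCIM, a regulator of Wnt signalling, was at 4801 in shGFP, 1157 in shNDRG3 and 1605 in shHIF1A cells at 12 h, and its difference of -1.56 turned to 0.46 against shNDRG3 cells. TNNC1, a troponin gene, was at 884, 518 and 274 (-1.58), and the elastase inhibitor gene PI3 at 1022, 581 and 342 (-1.49, named after its value was seen), with the shNDRG3 value between the others for both. The knockdown lines share the shGFP control array in these differences.

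Signalling lists were read in the same way. Of 19 tested ERK pathway output genes 3 were at least 2-fold lower, 16 were below 0 and the median was -0.46. Over all tested genes 0.605% were at least 2-fold lower and 49.1% were below 0. CCND1, the cyclin D1 gene, was at 1719, 1224, 867, 512, 334 and 407 (-1.03), the transcription factor gene ETV5 at 166, 240, 408, 166, 203 and 182 (-1.04), and EMP1, an epithelial membrane protein gene, at 3535, 1856, 1595, 1058, 990 and 746 (-1.06). In shNDRG3 cells at 12 h all 3 were also below the shGFP array, and against the shNDRG3 array the list median was -0.13 and CCND1 differed by 0.26. FOSL1, an AP-1 subunit gene, was at 468 in shGFP, 545 in shNDRG3 and 231 in shHIF1A cells (-0.93), lower than in either. The feedback phosphatase gene DUSP6 (-0.04) and the early growth response gene EGR1 (0.10) were near 0 and dim. Of 14 TGF-beta and BMP genes BMP6 was the 1 past 2-fold and the median was -0.04. SMAD6, a feedback inhibitor of BMP signalling, was at 1210, 1135, 954, 714, 614 and 558 (-0.74), BMP7 was at 160 and 304 in shGFP and shHIF1A cells (0.81), and the BMP target gene ID1 at 4961 and 3489 (-0.50).

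The stress, inflammatory and interferon lists held few differences of 2-fold. On the list of 23 unfolded protein and integrated stress response genes none was past 2-fold, 16 were above 0 and the median was 0.21, or 0.02 against shNDRG3 cells. The stress factor gene ATF3 was at 255, 296, 432, 395, 782 and 699 (0.65) and the asparagine synthetase gene ASNS at 1618, 2417, 4790, 2903, 6397 and 7356 (0.62). VLDLR, a lipoprotein receptor gene, was the lowest, at 218 in shGFP and 110 in shHIF1A cells (-0.82). Its shHIF1A value was under the filter, so it was tested through the shGFP array alone. Of 12 secreted inflammatory factors tested PTGS2, the inducible cyclooxygenase gene, was 2-fold lower (1483 and 641, -1.17) and the cytokine gene IL1B 2-fold higher (236 and 613, 1.27), with IL1A at 0.68 and a list median of -0.03, which was 0.41 with the 60th percentile filter and 0.19 against shNDRG3 cells. Of 21 interferon-stimulated genes none was past 2-fold and the median was 0.10. OAS1, an antiviral synthetase gene, was at 715 and 355 (-0.95), BST2 (tetherin) at 6759 and 4349 (-0.63) and OASL at 232 and 368 (0.60).

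Growth and housekeeping lists had few differences of 2-fold. Proliferation genes had a median of 0.18 over 23 tested, with AURKB, a mitotic kinase gene, highest (1353 and 2601, 0.93) and PLK1, another mitotic kinase gene, lowest (332 and 260, -0.32). Cholesterol synthesis genes had a median of 0.12 over 19, with the synthase gene HMGCS1 at 499 and 802 (0.65). Respiratory chain and ATP synthase genes had a median of -0.05 over 29, and ATP5MC1 was the 1 past 2-fold. NDUFV1, a complex I subunit gene, was lowest there, at 7535 and 5177 (-0.54). All 7 metallothionein genes tested, which bind metal ions and have near-identical relatives that probes may not separate, were below 0, from -0.40 to -0.12. Over all tested genes 49.1% were below 0. MT1X was at 2048, 21145, 40815, 29448, 44969 and 36414 (-0.16). Genes described as favouring HIF-2 alpha in other cells had 6 members tested, with CCND1 2-fold lower and 1 other member 2-fold higher. Their median was -0.08, which was 0.12 against shNDRG3 cells and 0.10 among genes equal to 1 probe. SLC7A5, an amino acid transporter gene of that list, was at 17223 and 22909 (0.41), and TGFA, an epidermal growth factor receptor ligand gene, at 439 and 374 (-0.22). Listed genes without an entry in the gene table, among them FAM162A, NDUFA4L2, HILPDA and several KDM genes, were not analysed here. Genes filed under an older name shared by several current ones stayed out of their lists, such as AK3L1, an older name of the adenylate kinase gene AK4, which was at 1455 in shGFP and 1853 in shHIF1A cells (0.34) and is counted among the 102 under that name.

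**Figure D5:**
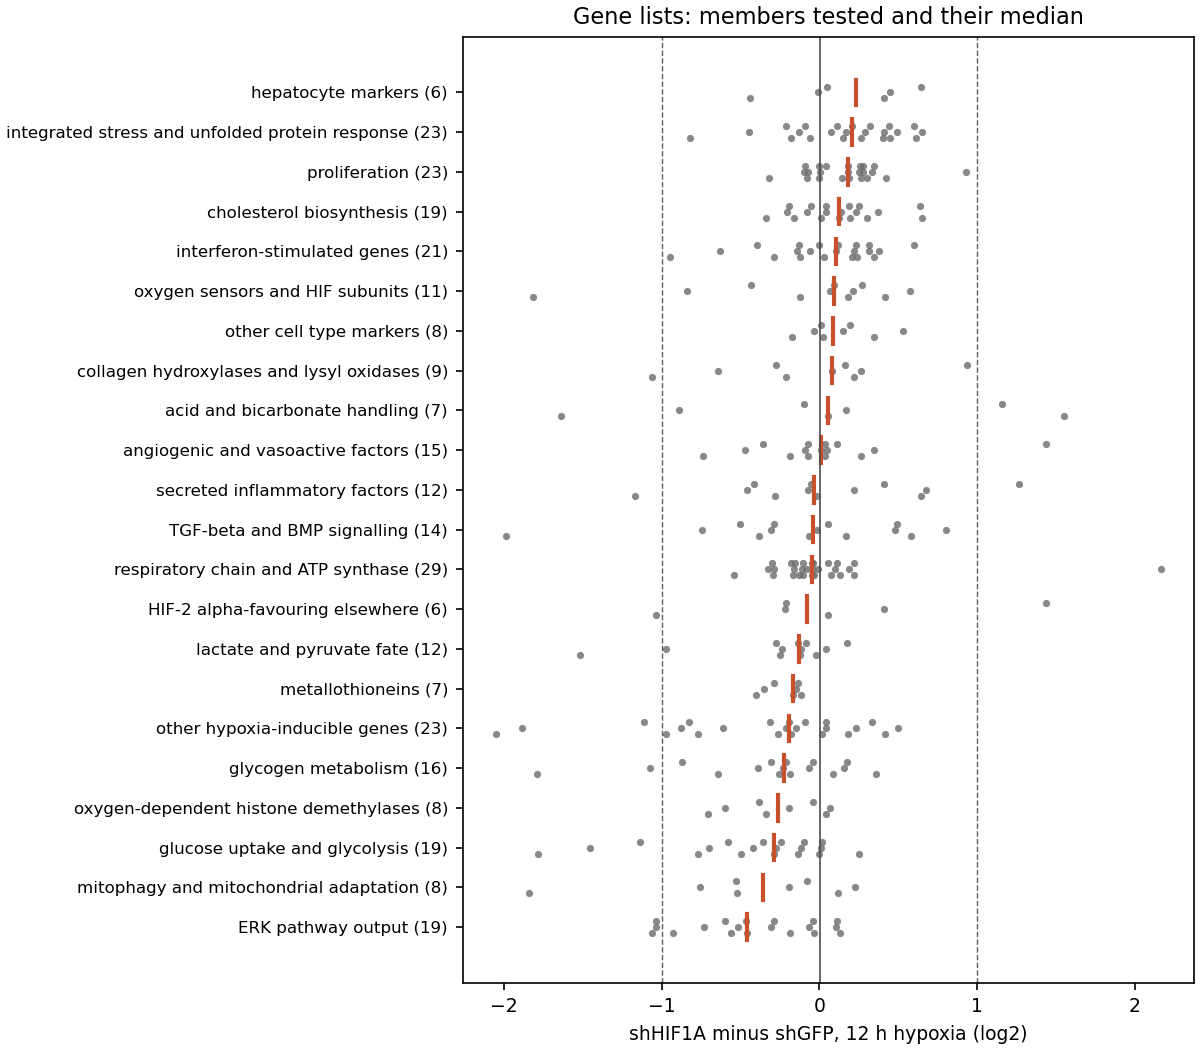
The shHIF1A minus shGFP difference at 12 h (log2) for each tested member of 22 gene lists, with the number tested in brackets. Red bars are list medians, the solid line is the median of all tested genes and dashed lines mark 2-fold. The lists of ERK outputs, mitophagy and glycolysis have the lowest medians, each with wide spread among members.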

How the data were processed

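Gene expression was measured on Illumina arrays from total RNA, of which 200 ng was amplified and biotin-labelled, per the labels' protocols. The authors deposited a gene-level table and probe tables as intensity on a linear scale. How they were scanned and normalized is not given in the sources. Sorted probe values of the 6 arrays lay within 0.0323 (log2) of each other and the lowest was 58.0, as after quantile normalization with no background subtracted. Of 18153 genes, 12770 equalled 1 of 29377 probes (3 decimals) and the others appear to average several. HIF1A is 1 of the latter.

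Names were updated through RefSeq synonyms (15058 current, 2282 renamed, 813 kept as filed). Differences were computed in Python 3.11.15 (pandas 2.3.3) with a pseudocount of 32, which understates changes of dim genes, and a gene counted as different at 2-fold. Counting was tested on simulated data. No test was run because each side has 1 array, and precision is limited by the number of arrays.

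Members and the 23 lists were chosen with earlier results of these data known. Named genes were HIF1A, EPAS1, NDRG3 and NDRG1, the 15 lowest and 15 highest differences, from each list the 5 largest and 2 nearest 0, and the 10 most induced at 6 h. List members outside that rule were named after their values were seen. Some genes that this rule or a count includes are not reported here. Alternatives covered filter, pseudocount, background, scaling, probe averaging, fold and control array.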

Additional observations from a re-analysis of the deposited data

How the results depend on the processing

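Each side has 1 array, so no replicate could be left out. No paired analysis was possible because no group has a second array. The count of genes at least 2-fold higher in shHIF1A at 12 h was 37 with a pseudocount of 100, 196 after background subtraction, 370 at 1.5-fold and 7 at 3-fold, and that of lower genes was 141 after background subtraction, 347 at 1.5-fold and 10 at 3-fold. Higher genes outnumbered lower ones after background subtraction, at 1.5-fold and among genes equal to 1 probe (53 and 52), and lower ones outnumbered higher ones in the other settings. List medians moved as follows. Without a filter they were -0.14 for mitophagy and 0.01 for hepatocyte markers. With the 60th percentile filter they were -0.21 for collagen hydroxylases, -0.09 for angiogenic factors, -0.21 for HIF-2 alpha genes, 0.41 for secreted factors and 0.05 for hepatocyte markers. After background subtraction they were -0.40 for histone demethylases and 0.42 for hepatocyte markers. Among genes equal to 1 probe they were -0.19 for mitophagy, -0.10 for acid handling and 0.10 for HIF-2 alpha genes. With the shNDRG3 array at 12 h as control, an alternative chosen after seeing the data, 43 genes were higher and 68 lower. Of the 61 higher genes 25, and of the 69 lower genes 40, were also 2-fold apart against that array, as were 27 of the 41 named genes past 2-fold. The medians were then -0.55 for glycolysis, -0.03 for lactate and pyruvate, -0.17 for collagen hydroxylases, 0.12 for HIF-2 alpha genes, 0.02 for the stress response, 0.29 for cholesterol synthesis, -0.13 for ERK outputs, 0.19 for secreted factors, -0.30 for metallothioneins, 0.11 for hepatocyte, 0.21 for keratinocyte and 0.19 for other cell type markers. Against that array TCIM (0.46) and CCND1 (0.26) changed sign. The median of the induced genes was 0.01 when they were chosen at 24 h on the other platform. The other 206 list medians moved by less. The cause of these shifts was not tested.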

Other observations

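Further genes at least 2-fold apart were chosen after their values were seen. Among the higher ones were the homeobox genes HOXA9 (357 in shGFP and 752 in shHIF1A cells at 12 h) and HOXD10 (361 and 779), the sodium pump subunit gene ATP1B1 (2690 and 6546), the glutathione transferase gene GSTP1 (3081 and 6415), the binding protein gene IGFBP2 (240 and 514) and the calgranulin gene S100A8 (119 and 323). The shGFP value of S100A8 was under the filter, so that gene was tested through the shHIF1A array alone. GLO1, which encodes a methylglyoxal-detoxifying enzyme, was at 4811 in shGFP cells and at 11165 in both knockdown lines. Among the lower ones were the thioredoxin reductase gene TXNRD1 (4623 and 2203), the nicotinamide methyltransferase gene NNMT (2561 and 1222), the folate enzyme gene SHMT1 (1146 and 445) and the neuropeptide gene GAL (6246 and 2807). None of these 11 genes was among the 102 induced in control cells at 6 h of hypoxia. The 102 were 0.899% of the genes compared there, so this says little for a set of 11.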
